A study of Mus musculus with 112 samples.

Results

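The transcripts of 10 genes of the blood lineage were followed through 112 RNA-seq libraries of mouse embryonic stem cells (ESCs) and their differentiated derivatives, to ask how loss of the histone demethylase LSD1, of its CoREST partners RCOR1 and RCOR2, or of the methyltransferase MLL4 bears on them. The genes were chosen by name from the 25209 genes counted in every library. They comprised the transcription factors and cofactor Tal1, Runx1, Gata1, Gata2, Lmo2, Klf1 and Gfi1b and the embryonic globins Hba-x, Hbb-bh1 and Hbb-y. The libraries fell into 34 groups of genotype, culture and treatment. Levels are given as CPM, the per-million share of the counts of a library that fell to a gene, as mean ± SD where a group is summarised.

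All cells came from the V6.5 mouse ESC line. ESCs were grown without serum in medium with inhibitors of MEK and GSK3 and with leukaemia inhibitory factor, and the untreated ones were LSD1 KO (promoter and first exon deleted, n = 6), LSD1 CI (endogenous LSD1 made catalytically inactive, n = 4), RCOR1 KO (n = 4), RCOR2 KO (n = 4), RCOR1/2 DKO (n = 4), MLL4 KO (n = 2), MLL4/LSD1 DKO (MLL4 deleted in LSD1 KO cells, n = 4), MLL4 KO/LSD1 CI (MLL4 deleted in LSD1 CI cells, n = 4) and wild type (WT, n = 11). Embryoid bodies (EBs), aggregates that differentiate into derivatives of all germ layers, were made by hanging drop for 6 days from LSD1 KO (n = 2), LSD1 CI (n = 4), RCOR1 KO (n = 4), RCOR2 KO (n = 2), RCOR1/2 DKO (n = 4) and WT cells (n = 7). In a separate EB experiment LSD1 KO cells received A485, an inhibitor of the acetyltransferases P300 and CBP (n = 2), or its vehicle DMSO (n = 2), beside WT cells with DMSO (n = 2). LSD1 KO ESCs likewise received A485 (n = 2) or DMSO (n = 2). Serum cultures of 4 days without the inhibitors and the factor, and epiblast-like cells (EpiLCs) of 2 days, each comprised LSD1 KO with A485, LSD1 KO with DMSO, LSD1 CI with DMSO and WT with DMSO (n = 2 each). Doxycycline (DOX) induced an HA-tagged LSD1 transgene in LSD1 KO ESCs (the LSD1 rescue line, n = 4 with and n = 4 without DOX) and in RCOR1/2 DKO ESCs (DKO + LSD1, n = 4 with and n = 4 without), and LSD1 KO ESCs without the transgene received DOX as well (n = 2 with and n = 2 without). The study used independent mutant clones. The labels tie no library to a clone or culture, so p-values measure the spread between these libraries, some of which may be technical repeats.

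Primitive blood arises from mesoderm, and its earliest red cells carry haemoglobins built from embryonic globin chains. TAL1, LMO2 and a GATA factor act together in a DNA-binding complex: TAL1 binds E-boxes with an E-protein partner, GATA1 or GATA2 bind GATA sites, and LMO2 bridges them without binding DNA. GATA2 and RUNX1 serve blood stem and progenitor cells and endothelium that forms blood, GATA1 and KLF1 drive red cell genes, and GFI1B is a repressor that recruits LSD1 and CoREST.

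The libraries held 17221431 to 58186717 counts, so that a single count stood for 0.0172 to 0.0581 CPM. In most groups the targeted gene was low as the label states: Kdm1a, which encodes LSD1, was at 3.43 to 6.85 CPM in LSD1 KO ESCs against 141 to 226 CPM in WT ESCs, and at 980 to 2253 CPM in the LSD1 rescue line with DOX against 10.8 to 38.1 CPM without. The RCOR2 KO EBs departed from this with 44.6 and 53.8 CPM of Rcor2, against 121 to 153 CPM in WT EBs, although RCOR2 KO ESCs had 0.674 to 4.46 CPM, so they are called the EBs labelled RCOR2 KO. Kmt2d, which encodes MLL4, was at 222 and 228 CPM in MLL4 KO, 154 to 204 CPM in MLL4/LSD1 DKO and 197 to 398 CPM in MLL4 KO/LSD1 CI ESCs against 307 to 746 CPM in WT ESCs, so the last of these overlapped WT (-0.83 ± 0.17, not called) and its label is not checked by the gene count. Kdm1a was at 7.13 and 7.23 CPM in the untreated LSD1 KO EBs but at 0.431 and 0.515 CPM in the LSD1 KO EBs with DMSO, so the pair of EB experiments did not use LSD1 KO material of the same residual Kdm1a level. Libraries 1 to 3 of WT ESCs and all 6 LSD1 KO ESC libraries had no count on genes of unplaced contigs, unlike all others, taken here as the mark of a separate alignment. EBs and ESCs carried the state their labels give: the summed level of 10 naive pluripotency markers was 110 to 402 CPM in WT EBs and 2927 to 4017 CPM in WT ESCs.

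The embryonic globins were EB transcripts, and rare ones. Hba-x encodes the embryonic alpha-like chain zeta, and had counts in 14 of 112 libraries, with 1 CPM or more in 5, all of them EBs. Hbb-bh1, a beta-like chain of primitive red cells, had counts in 38 libraries and reached 1 CPM in 7, again all EBs. Hbb-y, the epsilon-like chain, had counts in 8 libraries and nowhere more than 0.259 CPM. The adult globin genes Hba-a1, Hba-a2, Hbb-b1 and Hbb-b2 were at 0 in all WT EB libraries of both experiments. Gfi1b reached 1 CPM in 8 libraries, all EBs. How reads that match more than a single globin copy were treated is not given in the sources used here, so a read shared between globin genes could have been lost.

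The WT EBs with DMSO had the highest group mean of 5 of the 10 genes (Tal1, Gfi1b and the 3 globins), and there the levels per kilobase of exon can be set side by side. Hbb-bh1 led with 13.6 CPM per kb, followed by Tal1 and Gata2 with 7.33 CPM per kb each and Lmo2 with 6.72 CPM per kb. Hba-x had 3.44, Runx1 3.26 and Gata1 3.19 CPM per kb, then came Klf1 with 2.05, Gfi1b with 1.57 and Hbb-y with 0.186 CPM per kb. The highest group differed for the other genes. Runx1 peaked in LSD1 CI EBs at 25.0 ± 12.8 CPM (SD, n = 4), Lmo2 in LSD1 KO EBs with DMSO at 14.5 ± 3.86 CPM (n = 2), Gata2 in LSD1 CI serum cultures at 48.5 ± 11.7 CPM (n = 2), Gata1 in uninduced DKO + LSD1 ESCs at 6.50 to 8.32 CPM (n = 4) and Klf1 in RCOR2 KO ESCs at 3.76 ± 0.258 CPM (n = 4). In the order of the 34 group means, the ranges of neighbouring groups overlapped in 28 to 33 of 33 pairs per gene, so that the order separates distant groups only. For Gata2 the LSD1 CI serum cultures lay wholly above each of the 33 other groups. For Hbb-bh1 the WT EBs with DMSO lay wholly above 32 of them, with RCOR1 KO EBs as the exception.

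**Figure D1:**
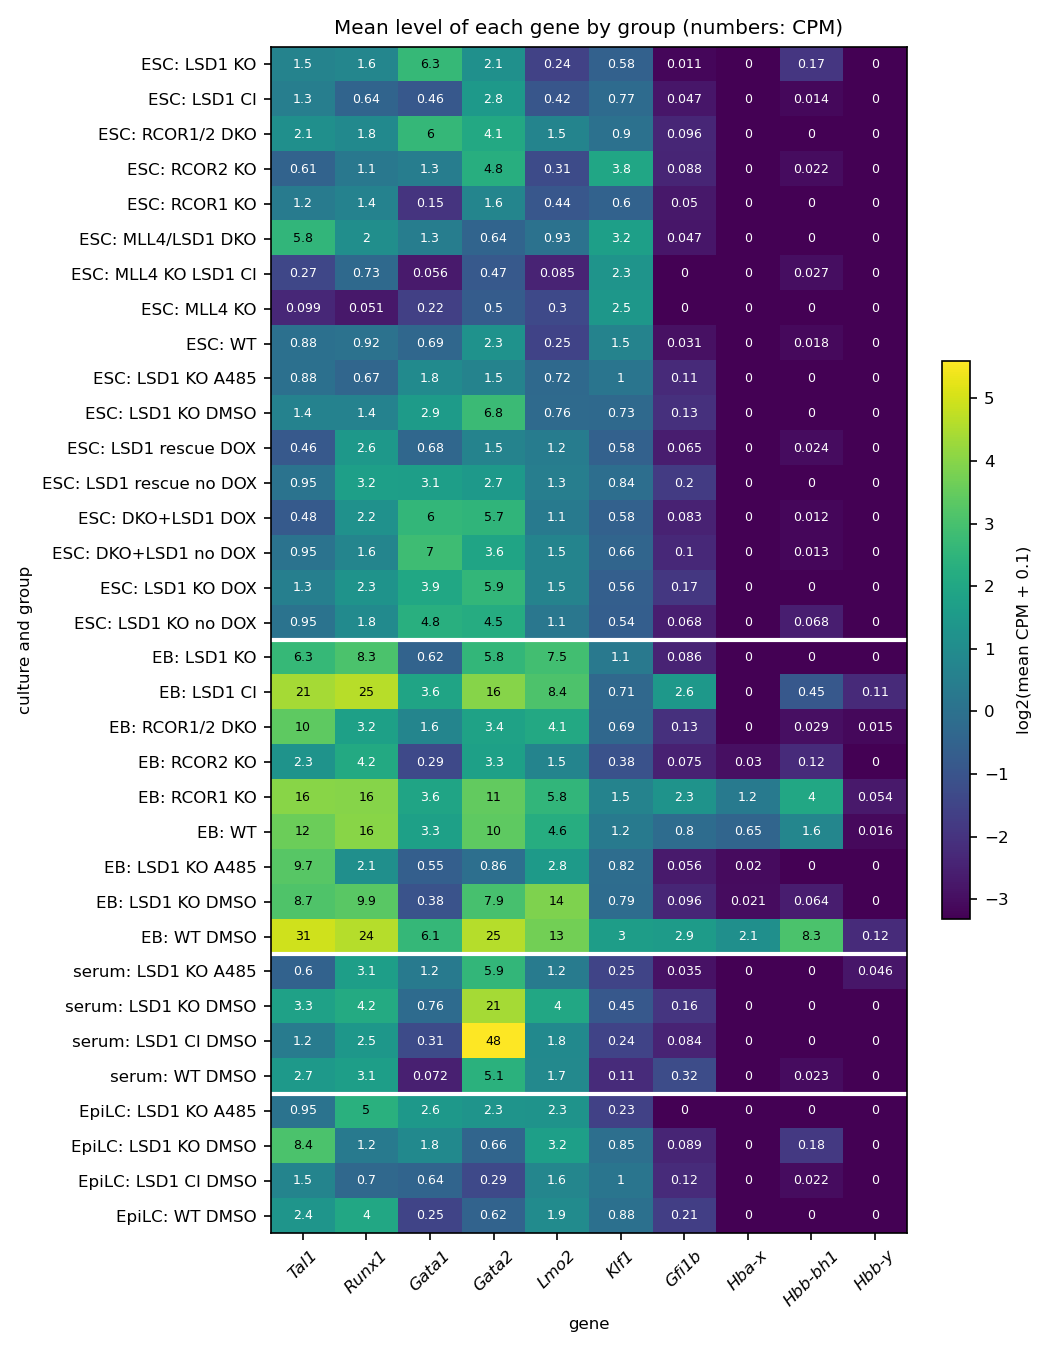
Mean CPM of the 10 blood genes (columns) in the 34 groups of libraries (rows, mutant or treated groups above their WT, vehicle or uninduced group, white lines between cultures), coloured by log2(mean CPM + 0.1) with the mean printed in each cell. Hba-x, Hbb-bh1 and Gfi1b have their highest means in EB rows, while Gata1 reaches 6.26 CPM in LSD1 KO ESCs and is highest in uninduced DKO + LSD1 ESCs.

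Of the 10 genes, 8 had at least 1 promoter window in RefSeq (GRCm38.p6), which runs from upstream of the annotated start to just past it. The windows of Hba-x, Hbb-y, Klf1, Gfi1b and Gata1 are shown because these red cell genes were all lower in LSD1 KO than in WT EBs with DMSO. Capitals mark matches on either strand to the GATA letters (AGATAA and AGATAG as well as TGATAA and TGATAG), the CACCC box letters CCNCNCCC that KLF1-type factors recognise, or the TATA letters TATAAA.
Hba-x chr11:32276350-32276649 (+): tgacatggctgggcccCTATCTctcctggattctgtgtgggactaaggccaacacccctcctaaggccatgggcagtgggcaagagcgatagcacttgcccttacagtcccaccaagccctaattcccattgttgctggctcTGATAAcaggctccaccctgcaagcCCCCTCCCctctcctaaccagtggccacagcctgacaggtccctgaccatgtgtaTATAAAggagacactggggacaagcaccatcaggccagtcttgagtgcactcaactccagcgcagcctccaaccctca
Hbb-y chr7:103853158-103853457 (-): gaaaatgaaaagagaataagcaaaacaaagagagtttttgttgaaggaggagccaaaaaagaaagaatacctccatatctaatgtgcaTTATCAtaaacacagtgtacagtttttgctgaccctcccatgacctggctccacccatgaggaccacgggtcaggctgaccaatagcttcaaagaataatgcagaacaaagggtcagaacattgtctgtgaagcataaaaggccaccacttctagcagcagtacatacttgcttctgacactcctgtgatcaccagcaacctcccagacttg
Klf1 chr8:84901732-84902031 (+): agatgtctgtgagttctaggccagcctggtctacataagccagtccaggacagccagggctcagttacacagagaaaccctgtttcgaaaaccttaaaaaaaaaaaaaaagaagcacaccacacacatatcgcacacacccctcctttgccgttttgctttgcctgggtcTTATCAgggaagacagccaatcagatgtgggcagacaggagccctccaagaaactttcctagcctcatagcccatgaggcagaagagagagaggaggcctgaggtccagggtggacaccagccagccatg
Gfi1b chr2:28621933-28622232 (-): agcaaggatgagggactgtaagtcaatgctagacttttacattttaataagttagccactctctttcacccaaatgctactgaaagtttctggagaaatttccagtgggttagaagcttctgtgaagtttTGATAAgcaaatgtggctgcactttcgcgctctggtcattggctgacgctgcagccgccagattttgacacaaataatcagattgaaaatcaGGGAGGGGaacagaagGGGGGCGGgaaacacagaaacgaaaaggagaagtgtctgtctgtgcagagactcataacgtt
Gata1 chrX:7967861-7968160 (-): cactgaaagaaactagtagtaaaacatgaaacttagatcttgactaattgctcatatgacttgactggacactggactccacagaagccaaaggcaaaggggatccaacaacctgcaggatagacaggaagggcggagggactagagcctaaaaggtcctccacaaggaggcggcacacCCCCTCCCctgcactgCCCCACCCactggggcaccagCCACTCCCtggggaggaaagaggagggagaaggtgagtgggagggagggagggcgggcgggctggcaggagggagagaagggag
GATA letters lay 2 times in the Hba-x window and once each in those of Hbb-y, Klf1 and Gfi1b, starting at positions -162, -80 and -120 from the start of these 3 genes, whereas 29.8% of the 32851 RefSeq mouse promoter windows held such a match. The Gata1 window held 3 CACCC matches and no GATA match, and 49.5% of all windows held a CACCC match. The Hba-x window also had the TATA letters at -28, a match found in 13.6% of all windows. The letters AATCAC of GFI factors were searched too and lay in none of these 5 windows, against 10.4% of all windows. The windows of Tal1, Runx1 and Gata2, also lower in LSD1 KO EBs with DMSO, are not shown. Both Runx1 windows held the GFI letters, at -68 and -94, and GATA letters lay in only 1 window of these genes, a Tal1 one. These are matches of letters, with no binding measured in these libraries.

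Blood factors were gained when WT ESCs were turned into EBs. Of the 6 members with enough counts to be tested, 5 rose in WT EBs over WT ESCs. The criteria used throughout were an edgeR adjusted p under 0.01 together with a log2 fold change beyond 1 in either direction, which 36.1% of all genes tested met here, 20.6% as higher. Runx1 was at 10.6 to 23.3 CPM in WT EBs (median 15.2, n = 7) and at 0.348 to 1.97 CPM in WT ESCs (n = 11), a log2 fold change of 3.91 ± 0.27 (SE, edgeR adjusted p = 7.39e-11). Tal1 rose by 3.57 ± 0.42 (adjusted p = 2.37e-07) and Lmo2 by 3.97 ± 0.59 (adjusted p = 5.29e-06), and the EB and ESC ranges of neither overlapped. Gata2 rose by 2.00 ± 0.30 (adjusted p = 5.34e-06). Gata1 rose by 2.11 ± 0.53 (adjusted p = 0.00143), with 1.01 to 5.47 CPM in WT EBs and 0.0459 to 2.03 CPM in WT ESCs, so the ranges overlapped. Klf1 had a log2 fold change of -0.53 ± 0.53 (adjusted p = 0.378). Hba-x had no count in any of the 11 WT ESC libraries and was at least 86.6-fold higher in WT EBs, taking 3 counts over the whole ESC group as the floor. In these bulk samples, fewer cells of a type and less RNA per cell cannot be told apart.

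The blood genes varied several-fold among WT, RCOR1 KO and LSD1 CI EBs of the same genotype, with the same library high in most of them. Library 5 of the WT EBs was the highest of the 7 in all 10 genes: Hbb-bh1 was at 6.50 CPM there and at 0 to 2.39 CPM in the other 6, and Tal1 at 28.6 CPM there against 2.18 to 21.2 CPM. Among RCOR1 KO EBs, library 3 was the highest and library 2 the lowest of 4 in all 10 genes, with 14.9 and 0.0558 CPM of Hbb-bh1 in them and 39.9 and 3.93 CPM of Tal1. Among LSD1 CI EBs, library 3 was the highest in 8 of the 9 genes with counts, Gata2 reaching 31.3 CPM there against 7.19 to 13.6 CPM in the other 3. The same WT and RCOR1 KO libraries had the highest summed level of 13 endothelial markers (498 CPM in WT library 5 of a range of 134 to 498, and 470 CPM in RCOR1 KO library 3 of 194 to 470) and of 10 cardiac markers (308 and 317 CPM), whereas the LSD1 CI endothelial sum was highest in library 4 with 537 CPM. The part of these cell types in the members' spread was not tested. In RCOR1/2 DKO EBs the spread was narrower for Runx1 (3.06 to 3.51 CPM), Tal1 (9.25 to 12.1 CPM) and Lmo2 (3.52 to 5.06 CPM).

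**Figure D2:**
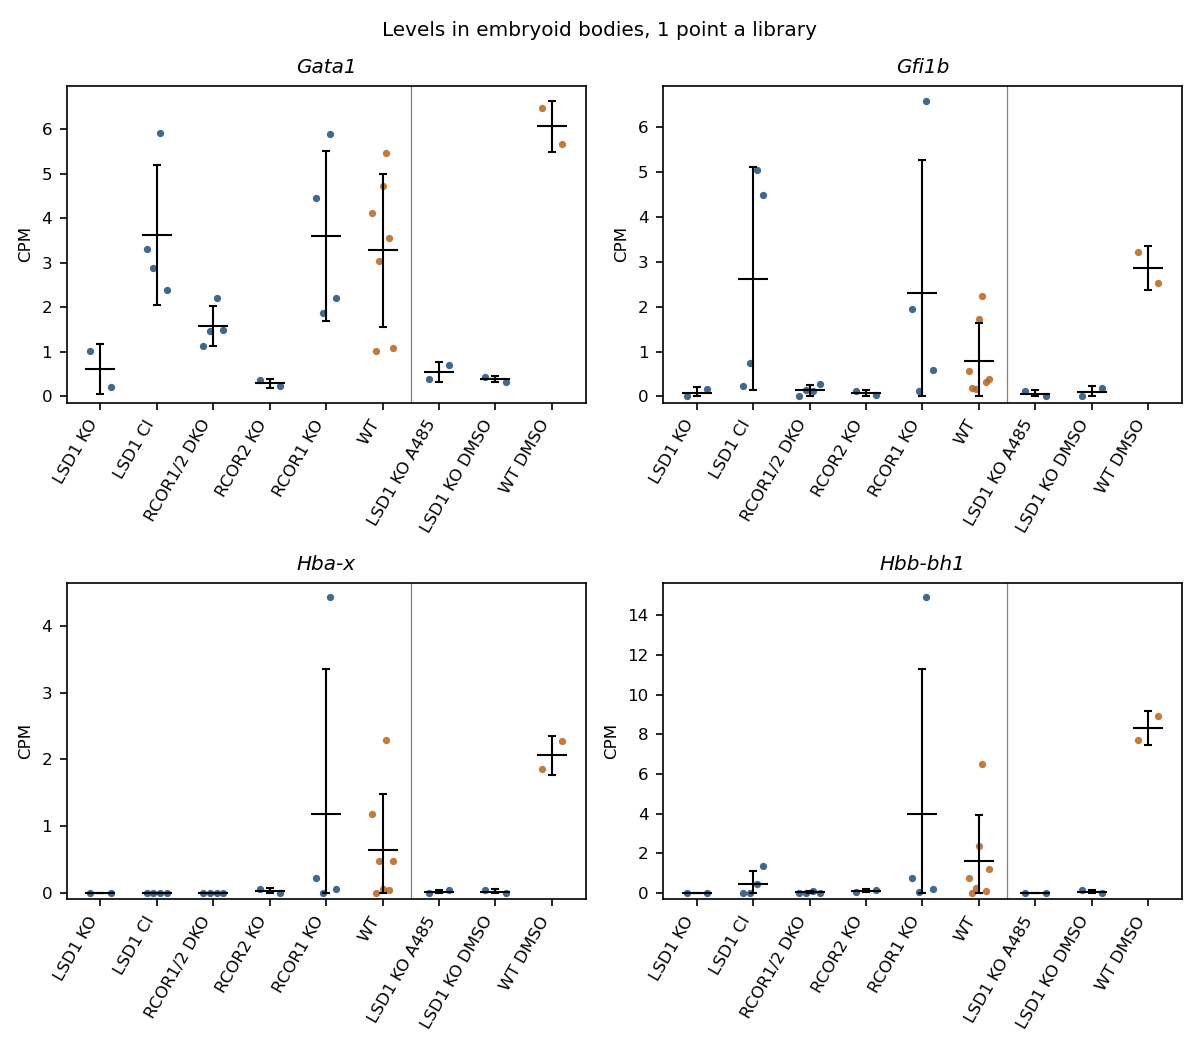
CPM of Gata1, Gfi1b, Hba-x and Hbb-bh1 in each EB library (points) with the group mean and SD (lines, drawn no lower than 0), mutant groups left of WT, with the DMSO and A485 experiment right of the grey line. Hbb-bh1 reaches 14.9 CPM in RCOR1 KO library 3 and 6.50 CPM in WT library 5, and both WT libraries with DMSO lie above both LSD1 KO libraries with DMSO for all 4 genes.

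In the EBs with DMSO, loss of LSD1 went with lower levels of nearly the whole set. Of the 6 factors with counts in every library, 5 fell in LSD1 KO EBs relative to WT EBs and none rose, while 18.8% of all genes tested passed in either direction and 7.13% fell. Hbb-bh1, Hba-x and Gfi1b were tested as well, but they had 0 to 8 counts in each LSD1 KO library and entered the test through the WT libraries alone, so they could be called in 1 direction only and are described by their levels. Hbb-bh1 was at 0.129 and 0 CPM in LSD1 KO EBs against 7.69 and 8.90 CPM in WT EBs, and DESeq2 did not call it (adjusted p = 0.0126). Hba-x had 2 counts over both LSD1 KO libraries and 182 over both WT libraries, a WT level 90.2 times as high (95% counting interval 24.6 to 751, too narrow because counts came largely in pairs). Hbb-y had no count in the LSD1 KO libraries and 10 in the WT ones, at least 3.30-fold higher in WT. The globin levels of LSD1 KO EBs were thus at or near the floor in both libraries.

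The red cell regulators were lower as well. Gata1 was at 0.430 and 0.335 CPM in LSD1 KO EBs against 6.47 and 5.66 CPM in WT EBs, a log2 fold change of -4.06 ± 0.41 (edgeR adjusted p = 1.01e-05). Gfi1b, described by its level only, was at 0 and 0.191 CPM against 3.21 and 2.52 CPM in WT, and DESeq2 did not call it (adjusted p = 0.0935). Klf1 was at 0.816 and 0.766 CPM against 3.04 and 3.01 CPM in WT (-2.02 ± 0.39, adjusted p = 0.00155). The factors of blood progenitors and endothelium included 3 that fell. Tal1 was at 9.69 and 7.70 CPM in LSD1 KO EBs against 32.3 and 30.3 CPM in WT EBs (-1.93 ± 0.18, adjusted p = 5.79e-06). Gata2 was at 6.68 and 9.16 CPM against 22.8 and 26.4 CPM (-1.72 ± 0.24, adjusted p = 0.000127). Runx1 was at 9.51 and 10.3 CPM against 25.7 and 22.5 CPM (-1.37 ± 0.20, adjusted p = 0.000200). Lmo2 stood apart with 17.2 and 11.7 CPM against 12.5 and 13.0 CPM (0.09 ± 0.22, adjusted p = 0.768). Klf1 lost its call when any of 3 single libraries was left out (LSD1 KO 1 or 2, or WT 1), with an adjusted p of up to 0.0155. Each group held 2 libraries, and these p-values do not cover the wider spread among the untreated WT EBs. The LSD1 KO levels of Tal1, Gata2 and Klf1 lay within that spread (2.18 to 28.6, 4.47 to 18.4 and 0.304 to 3.04 CPM). Those of Gata1 and Runx1 lay below it (1.01 to 5.47 and 10.6 to 23.3 CPM).

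Other genes of the lineage were read from lists in the same fit. Of 23 other erythroid genes listed, 15 could be tested, and in LSD1 KO EBs with DMSO 7 fell and 1 rose (median log2 fold change -3.19, against 0.02 over all genes). Alas2, the red cell enzyme that starts haem synthesis, averaged 0.0884 CPM in LSD1 KO EBs and 7.19 CPM in WT EBs. Epb42 of the red cell membrane skeleton averaged 0.0884 CPM in LSD1 KO EBs and 5.23 CPM in WT EBs. With so few counts in LSD1 KO EBs, Alas2 and Epb42 could be called in 1 direction only, like the globins. The list counts and the median include such genes, so they are descriptions and nothing is read from their direction. The summed level of the 21 erythroid genes in the files nevertheless ran the other way, with 98.4 and 104 CPM in LSD1 KO EBs against 68.8 and 63.0 CPM in WT EBs. That sum was 110 to 133 CPM in WT EpiLCs, which had no Hba-x count, so it is no measure of red cells. Of 23 tested genes of blood progenitors and lineages 10 fell and none rose, among them Zfpm1, the GATA1 cofactor (-3.23 ± 0.14), Cbfa2t3, a corepressor of the TAL1 complex (-3.56 ± 0.32), and the receptor gene Kit (-1.70 ± 0.16).

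Markers of other EB cell types moved in the same samples. In LSD1 KO EBs with DMSO 9 of 10 cardiac markers fell and 1 rose, and 6 of 10 visceral endoderm markers fell and 2 rose. Of 13 endothelial markers 6 fell and 1 rose. By contrast, 7 of 9 tested neural markers rose, and 6 of 10 naive pluripotency markers rose and 2 fell. The endothelial sum was 137 and 141 CPM in LSD1 KO EBs against 410 and 407 CPM in WT EBs, with Emcn at 0 in the LSD1 KO libraries, and the cardiac sum was 58.5 and 34.6 CPM against 265 and 271 CPM. The neural sum was 340 and 369 CPM in LSD1 KO EBs against 45.7 and 64.9 CPM in WT EBs, with Neurog2 at 0 in WT. The part of these shifts in the fall of the blood genes was not tested.

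In the untreated EBs the same comparison gave no call. None of 9 members tested passed in LSD1 KO EBs over WT EBs, where 13.7% of all genes did, although 3 had an unadjusted p under 0.05 and DESeq2 called 2. Gata1 came nearest, at 1.02 and 0.221 CPM in LSD1 KO EBs against 1.01 to 5.47 CPM in WT EBs (log2 fold change -2.39 ± 0.70, edgeR adjusted p = 0.0105), and it passed when WT library 2 or WT library 7 was left out. Runx1 was at 7.62 and 8.94 CPM against 10.6 to 23.3 CPM, without overlap (-0.93 ± 0.37, adjusted p = 0.0555). Hbb-bh1 and Hba-x had no count in either LSD1 KO library and were at least 41.1-fold and at least 17.3-fold higher over the WT libraries as a group, but WT library 2 had no count of either. A fit added after the data were seen held the untreated and the DMSO EBs of both genotypes, with the experiment as a term. There Runx1 (-1.13 ± 0.23, edgeR adjusted p = 0.00100) and Gata1 (-3.04 ± 0.60, adjusted p = 0.000923) fell. Hba-x and Hbb-bh1 passed as well, but with few or no counts in the LSD1 KO libraries they could be called in 1 direction only, so nothing is read from them. In the untreated LSD1 KO EBs 1 of 14 other erythroid genes rose and 1 fell, and of 23 progenitor and lineage genes 3 rose and 3 fell. The erythroid sum was 80.6 and 96.8 CPM there against 36.8 to 52.7 CPM in WT EBs. Of the other cell types, 7 of 10 cardiac markers fell and 1 rose, and 6 of 10 visceral endoderm markers fell and 2 rose. Among neural markers 6 of 10 rose. The part of these shifts in the members' levels in untreated LSD1 KO EBs was not tested.

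The catalytic mutant asks whether these levels differ where LSD1 is present without its enzyme activity. Its Kdm1a transcript was somewhat lower too, at 133 to 153 CPM in LSD1 CI EBs against 179 to 224 CPM in WT EBs. The log2 fold change was -0.45 ± 0.07 there, -0.60 ± 0.09 in LSD1 CI serum cultures and -0.63 ± 0.07 in LSD1 CI EpiLCs. The part of that difference was not tested. None of 9 members passed in LSD1 CI EBs over WT EBs by edgeR, where 2.54% of all genes did, with 2 at an unadjusted p under 0.05 and 1 called by DESeq2, namely Hba-x, which could be called there in 1 direction only. Runx1 was at 17.8 to 44.2 CPM in LSD1 CI EBs and 10.6 to 23.3 CPM in WT EBs (0.71 ± 0.27, adjusted p = 0.0838), and Gata1 at 2.40 to 5.92 CPM and 1.01 to 5.47 CPM (0.19 ± 0.45, adjusted p = 0.822). Hba-x had no count in the 4 LSD1 CI libraries and was at least 27.5-fold higher in the WT group, whereas Gfi1b reached 5.04 and 4.49 CPM in 2 of the LSD1 CI libraries. Set against each other directly, LSD1 KO EBs had less Runx1 than LSD1 CI EBs (7.62 and 8.94 CPM against 17.8 to 44.2 CPM, -1.64 ± 0.41, adjusted p = 0.00467), the only member of 9 called by edgeR, with 11.4% of all genes called and 4.00% as lower. That call was lost when either LSD1 KO library or LSD1 CI library 3 was left out (adjusted p of up to 0.0559) or when only the compared groups were fitted.

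Loss of the CoREST scaffolds lowered Runx1 in EBs. In RCOR1/2 DKO EBs 2 of 9 members fell, with 26.4% of all genes called and 12.3% called as lower. Runx1 was at 3.06, 3.08, 3.51 and 3.34 CPM in the DKO EBs against 10.6 to 23.3 CPM in WT EBs (log2 fold change -2.31 ± 0.31, edgeR adjusted p = 2.05e-06), the groups lying well apart, and the call held in all 18 alternatives tried. Gata2 was at 1.59 to 4.65 CPM against 4.47 to 18.4 CPM (-1.61 ± 0.50, adjusted p = 0.00874), but lost its call in 9 of 18 alternatives, among them leaving out any DKO library or WT library 1, 3, 4 or 5, with an adjusted p of up to 0.0363. Tal1 was at 9.25 to 12.1 CPM against 2.18 to 28.6 CPM (-0.20 ± 0.65, adjusted p = 0.803). Hba-x had no count in the DKO EBs and was at least 28.0-fold higher in the WT group, and Hbb-bh1 had counts in 1 of the 4 DKO libraries (0.117 CPM). DESeq2 called both globins as lower in addition, the 1 direction in which they could be called.

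In the EBs labelled RCOR2 KO 2 of 9 members fell, with 5.28% of all genes called and 3.10% called as lower. Runx1 was at 4.24 and 4.18 CPM there against 10.6 to 23.3 CPM in WT EBs (-1.97 ± 0.41, adjusted p = 0.00236). Gata1 was at 0.363 and 0.226 CPM against 1.01 to 5.47 CPM (-3.53 ± 0.78, adjusted p = 0.00398). Neither range overlapped that of WT, but both calls were lost without either of these 2 libraries (adjusted p of up to 0.0927) or with the compared groups alone. Of the other cell types there, 4 of 10 cardiac and 5 of 10 visceral endoderm markers fell and 4 of 10 neural markers rose, and the endothelial sum was 89.7 and 53.5 CPM against 134 to 498 CPM in WT EBs, a part in the result that was not tested. For the RCOR1/2 DKO EBs over them edgeR called no member, with 11.9% of all genes called and 2 members at an unadjusted p under 0.05, while DESeq2 called Gata1, which was at 1.14 to 2.22 CPM in the DKO EBs. With the compared groups alone edgeR called 3 as higher in the DKO EBs, namely Tal1, at 9.25 to 12.1 CPM in the DKO EBs against 2.12 and 2.48 CPM (2.19 ± 0.22, adjusted p = 1.59e-05), Gata1 and Lmo2. In RCOR1 KO EBs no member was called, with 0.00558% of all genes called, none at an unadjusted p under 0.05 and none by DESeq2. Their Hbb-bh1 spanned 0.0558 to 14.9 CPM.

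The lineage lists moved in both directions in the DKO EBs. Of 14 other erythroid genes tested 4 fell and 2 rose, with Ank1 (-2.18 ± 0.43) and Nfe2, an erythroid activator (-3.56 ± 0.75), among those that fell and Tspo2 (5.55 ± 1.03) among those that rose. Of 23 progenitor and lineage genes 8 fell and 3 rose. Zfpm1 averaged 8.40 CPM in the DKO EBs and 140 CPM in WT EBs (-4.07 ± 0.39), whereas Myb, a progenitor factor, averaged 68.2 CPM and 8.12 CPM (3.05 ± 0.32, adjusted p = 1.04e-07). The homeobox gene Hhex fell in untreated LSD1 KO EBs (-1.85 ± 0.27), in the EBs labelled RCOR2 KO (-1.99 ± 0.28) and in the DKO EBs (-1.85 ± 0.20), comparisons that share the same WT libraries. In the DKO EBs 8 of 10 cardiac markers fell, and 8 of 10 naive pluripotency markers rose and 1 fell. Of 13 endothelial markers 3 rose and 3 fell. The naive sum was 695 to 800 CPM against 110 to 402 CPM in WT EBs. The part of these shifts in the members' levels was not tested.

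Inhibition of P300 and CBP in LSD1 KO EBs lowered Gata2, Lmo2 and Runx1. With A485, 3 of 9 members fell relative to DMSO, with 13.8% of all genes called and 9.54% called as lower. Gata2 was at 0.616 and 1.10 CPM with A485 against 6.68 and 9.16 CPM with DMSO (log2 fold change -3.07 ± 0.29, edgeR adjusted p = 8.33e-06). Lmo2, the factor not called between LSD1 KO and WT EBs with DMSO, was at 2.43 and 3.22 CPM against 17.2 and 11.7 CPM (-2.25 ± 0.24, adjusted p = 2.60e-05). Runx1 was at 2.46 and 1.70 CPM against 9.51 and 10.3 CPM (-2.17 ± 0.22, adjusted p = 1.74e-05). All 3 calls held in all 11 alternatives. Tal1 was at 8.70 and 10.6 CPM with A485 and 9.69 and 7.70 CPM with DMSO (0.25 ± 0.18, adjusted p = 0.323), and Gata1 at 0.392 and 0.701 CPM and 0.430 and 0.335 CPM (0.63 ± 0.44, adjusted p = 0.300). The globins were near the floor in both groups. In the same comparison the progenitor and lineage genes Fli1 (-4.33 ± 0.29) and Cd44 (-3.46 ± 0.16) fell and Myb rose (1.60 ± 0.14), and 7 of 10 naive pluripotency markers rose, their sum being 940 and 841 CPM with A485 against 369 and 371 CPM with DMSO. In the same libraries 6 of 10 tested trophoblast markers fell and 1 rose, and 5 of 10 cardiac markers fell and 1 rose. Of 9 tested neural markers 5 fell. The trophoblast sum was 163 and 120 CPM with A485 against 479 and 425 CPM with DMSO. The part of these shifts was not tested. In LSD1 KO ESCs, where the study used another dose of A485, Gata2 was the 1 member of 6 called, with 17.6% of all genes called and 11.7% called as lower: it was at 1.11 and 1.84 CPM with A485 against 8.57 and 4.93 CPM with DMSO (-2.24 ± 0.29, adjusted p = 1.58e-05). All 10 naive pluripotency and 4 of 8 tested neural markers fell beside it, the naive sum being 1175 to 1213 CPM with A485 against 3645 to 3728 CPM with DMSO, and the part of that shift was not tested.

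In undifferentiated ESCs the prominent blood gene was Gata1. In LSD1 KO ESCs 2 of 6 members tested were called, with 21.0% of all genes called. Gata1 was at 4.18 to 7.68 CPM in LSD1 KO ESCs (median 7.01, n = 6) against 0.0459 to 2.03 CPM in WT ESCs (n = 11), a log2 fold change of 3.29 ± 0.44 (edgeR adjusted p = 3.49e-08). Within the alignment that the LSD1 KO libraries share, the 3 WT libraries had 0.0459, 0.260 and 0.309 CPM, and with the alignment as a term the change was 4.84 ± 0.71 (adjusted p = 6.26e-07). The groups did not overlap, but no library of either was left out in turn. The WT EBs with DMSO had 6.47 and 5.66 CPM of Gata1, and unlike them the LSD1 KO ESCs had no count of Hba-x. Klf1 fell by 1.31 ± 0.36 on the log2 scale (adjusted p = 0.00194), but with the alignment as a term it had -0.82 ± 0.46 (adjusted p = 0.144). Hbb-bh1 had counts in 4 of the 6 LSD1 KO libraries, up to 0.624 CPM.

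The gain of Gata1 was not seen in LSD1 CI ESCs. No member of 6 was called there by edgeR or DESeq2, with 3.24% of all genes called and 1 member at an unadjusted p under 0.05. Gata1 was at 0.173 to 1.10 CPM in LSD1 CI ESCs (-0.54 ± 0.57 over WT, adjusted p = 0.539), and LSD1 KO ESCs exceeded LSD1 CI ESCs by 3.83 ± 0.67 (adjusted p = 8.29e-06). In that comparison, added after the data were seen, Gata1 was the only member of 6 called by edgeR, with 16.0% of all genes called and 8.08% as higher, and DESeq2 called Runx1 in addition.

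RCOR1/2 DKO ESCs had a gain of the same kind. Of 6 members 3 rose, with 17.7% of all genes called and 11.3% called as higher. Gata1 was at 4.73, 6.05, 6.15 and 7.11 CPM in the DKO ESCs against 0.0459 to 2.03 CPM in WT ESCs (3.06 ± 0.47, edgeR adjusted p = 1.06e-06). Lmo2 was at 1.15 to 1.92 CPM against 0 to 0.692 CPM (2.44 ± 0.55, adjusted p = 0.000306) and did not rise in LSD1 KO ESCs, where it was at 0 to 0.365 CPM. Tal1 rose by 1.11 ± 0.33 (adjusted p = 0.00534), a call lost without DKO library 1, 2 or 3, with an adjusted p of up to 0.0299. In RCOR2 KO ESCs 2 of 6 members rose, with 3.85% of all genes called and 2.33% as higher: Gata2 was at 3.61 to 5.57 CPM against 1.22 to 3.55 CPM in WT ESCs (1.15 ± 0.30, adjusted p = 0.00529) and Klf1 at 3.45 to 4.07 CPM against 0.398 to 3.25 CPM (1.41 ± 0.36, adjusted p = 0.00395). Leaving out RCOR2 KO library 1 or 3 cost both calls, library 2 that of Klf1 and library 4 that of Gata2, with adjusted p-values of 0.0112 to 0.0277. The Klf1 call was also lost with the alignment as a term (1.26 ± 0.38, adjusted p = 0.0118). WT libraries 6 and 7, which lie among the RCOR2 KO libraries in the order of deposit, had 2.26 and 2.94 CPM of Klf1. The Klf1 rise thus rests in large part on other, lower WT libraries, and the labels do not say which WT libraries belong to which experiment. In RCOR1 KO ESCs no member was called by edgeR, with 0.142% of all genes called and 2 members at an unadjusted p under 0.05, and DESeq2 called Gata1 as lower (0 to 0.272 CPM in RCOR1 KO ESCs).

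**Figure D3:**
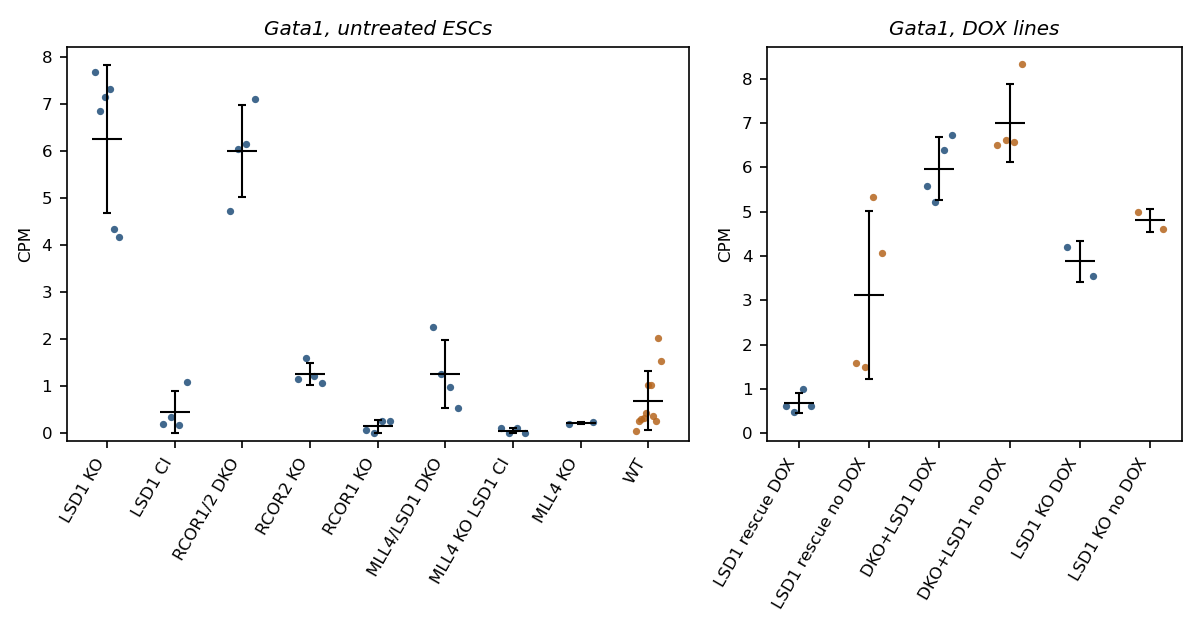
CPM of Gata1 in each ESC library (points) with group means and SD (lines, drawn no lower than 0), for the untreated genotypes and for cells with and without DOX, mutant or induced groups on the left. LSD1 KO ESCs (4.18 to 7.68 CPM) and RCOR1/2 DKO ESCs (4.73 to 7.11 CPM) lie above all WT ESCs (up to 2.03 CPM), and the LSD1 rescue line with DOX is at 0.490 to 1.00 CPM.

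The Gata1 difference from WT was not the same in EBs as in ESCs. In the untreated EBs used here Gata1 was not called over WT in LSD1 KO or RCOR1/2 DKO, so a reversed direction is not shown. Its log2 fold change in LSD1 KO cells over WT was lower in EBs than in ESCs, with a difference of -5.69 ± 1.03 (EB minus ESC, edgeR test of the difference, adjusted p = 9.12e-06). Among the 6 factors with counts in all these groups it was the 1 called, with 18.8% of all genes called and 7.15% as lower in EBs, and Runx1 had -1.75 and was called in 4 of 6 alternatives. Hbb-bh1 passed the threshold too, but the LSD1 KO EBs had no count of it and it entered the test through the EB groups where it was high, so nothing is read from it. For RCOR1/2 DKO the effect in EBs lay below that in ESCs for Gata1 (-4.13 ± 0.76, adjusted p = 1.02e-05), Runx1 (-3.11 ± 0.51, adjusted p = 9.27e-07), Lmo2 (-2.60 ± 0.79, adjusted p = 0.00612) and Gata2 (-2.34 ± 0.54, adjusted p = 0.000302), 4 of 9 members, with 20.2% of all genes called and 9.70% as lower in EBs. The Lmo2 difference missed the threshold with the alignment as a term (adjusted p = 0.0133). For LSD1 CI no member's effect differed between EBs and ESCs by edgeR or DESeq2, with 3.10% of all genes called and 1 member at an unadjusted p under 0.05.

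Gata1 was lower in LSD1 KO ESCs where LSD1 was restored. In the rescue line Gata1 was at 0.627, 0.490, 1.00 and 0.612 CPM with DOX against 1.58, 1.49, 5.32 and 4.06 CPM without, each library with DOX lying below the one of its own number and below all those without DOX (log2 fold change -2.14 ± 0.34, edgeR adjusted p = 0.000497). It was the only member of 7 called, with 2.37% of all genes called and 2.05% called as lower. With the replicate number as a block it fell by 2.02 ± 0.29 (adjusted p = 0.000213), and with only these 2 groups fitted it was not called (adjusted p = 0.0241). Libraries 1 and 2 without DOX were lower than libraries 3 and 4, also for Gata2 (1.26 and 0.558 CPM against 4.60 and 4.54 CPM). When the same protein was induced in cells that lack RCOR1 and RCOR2, Gata1 was at 5.57, 5.21, 6.38 and 6.73 CPM with DOX and 6.50, 6.61, 6.56 and 8.32 CPM without (-0.24 ± 0.30, adjusted p = 0.753). Kdm1a was at 1830 to 6038 CPM in these cells with DOX and already at 253 to 276 CPM without. The uninduced rescue line had 10.8 to 38.1 CPM, so the DOX effects of these lines start from unlike Kdm1a levels. No member was called in the DKO + LSD1 line by edgeR or DESeq2, with 0.332% of all genes called and 1 member at an unadjusted p under 0.05. The difference between the DOX effects of these lines was -1.91 ± 0.45 for Gata1 (adjusted p = 0.0228), short of the threshold by edgeR and past it by DESeq2, with 0.640% of all genes called. In LSD1 KO ESCs without the transgene DOX gave 4.21 and 3.56 CPM against 4.99 and 4.62 CPM (-0.40 ± 0.43, adjusted p = 0.958). No member was called there by either tool, with 0.0178% of all genes called and none at an unadjusted p under 0.05. The rescue line's DOX effect was not shown to differ from this one (-1.75 ± 0.54, adjusted p = 0.202, with 0.0178% of all genes called).

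MLL4 loss went with low Tal1, Runx1 and Gata2 in ESCs. In MLL4 KO ESCs 3 of 6 members fell, with 10.7% of all genes called and 6.85% called as lower. Tal1 was at 0.101 and 0.0959 CPM in MLL4 KO ESCs against 0.540 to 1.32 CPM in WT ESCs (-3.20 ± 0.70, edgeR adjusted p = 0.000504). Gata2 was at 0.810 and 0.192 CPM against 1.22 to 3.55 CPM (-2.27 ± 0.55, adjusted p = 0.00145). Runx1 had 2 counts over both MLL4 KO libraries, so that the level in the WT group was 19.1 times as high (95% counting interval 5.24 to 158). With 19761624 and 20865788 counts these libraries were among the shallower ones, and leaving out MLL4 KO library 2 ended all 3 calls (adjusted p of 0.0221 for Tal1, 0.0364 for Runx1 and 0.113 for Gata2), while leaving out library 1 ended that of Tal1. In MLL4 KO ESCs 5 of 11 tested trophoblast and 2 of 11 endothelial markers fell, the endothelial sum being 44.2 and 60.1 CPM against 95.0 to 150 CPM in WT ESCs, and the part of that shift was not tested.

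Where LSD1 was missing as well, Tal1 and Runx1 were not low. Tal1 was at 4.80, 4.34, 6.49 and 7.45 CPM in MLL4/LSD1 DKO ESCs, above all WT ESCs (2.66 ± 0.32, edgeR adjusted p = 8.30e-09) and above both MLL4 KO libraries (5.85 ± 0.77, adjusted p = 2.22e-07). Runx1 was at 1.18 to 3.45 CPM, a level 40.2 times that of MLL4 KO ESCs (95% counting interval 10.9 to 335). Gata2 remained below WT, at 0.216 to 1.27 CPM (-1.87 ± 0.39, adjusted p = 0.000136). Gata1, at 4.18 to 7.68 CPM in LSD1 KO ESCs, was at 0.540 to 2.26 CPM in MLL4/LSD1 DKO ESCs and was not called there over WT. Over WT, 2 of 6 members were called, with 14.2% of all genes, and over MLL4 KO, a comparison added after the data were seen, 2 of 6, with 7.90% of all genes and 5.77% as higher. With the catalytic mutant in place of the knockout, Runx1 was at 0.333 to 1.04 CPM, within the range of WT ESCs (0.348 to 1.97 CPM) but for its lowest library, and 15.0 times as high as in MLL4 KO ESCs (95% counting interval 3.94 to 127). Tal1, however, was low: it was at 0.231, 0.207, 0.642 and 0 CPM in MLL4 KO/LSD1 CI ESCs (-1.72 ± 0.44 over WT, adjusted p = 0.00158). There Gata1 (-3.53 ± 0.88, adjusted p = 0.00143) and Gata2 (-2.31 ± 0.41, adjusted p = 1.35e-05) fell too, 3 of 6 members with 14.1% of all genes called and 7.80% as lower. The Tal1 call was lost without library 2 or 4 and the Gata1 call without library 2 (adjusted p of up to 0.0111). Against MLL4 KO no member was called in MLL4 KO/LSD1 CI ESCs by edgeR or DESeq2, with 0.125% of all genes called and 1 member at an unadjusted p under 0.05.

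Short differentiation gave further patterns for Tal1, Gata1 and Gata2. In EpiLCs Tal1 was at 10.1 and 6.71 CPM in LSD1 KO cells against 2.48 and 2.33 CPM in WT cells (1.76 ± 0.30, edgeR adjusted p = 0.000305), and Gata1 at 1.75 and 1.83 CPM against 0.216 and 0.288 CPM (2.75 ± 0.42, adjusted p = 0.000105). These were the 2 members called of 6, with 9.49% of all genes called and 6.82% as higher. LSD1 CI EpiLCs had 1.31 and 1.75 CPM of Tal1, lower than LSD1 KO EpiLCs (KO over CI 2.39 ± 0.31, adjusted p = 6.45e-05, the 1 member called of 6, with 3.98% of all genes called and 3.01% as higher). In LSD1 KO EpiLCs 9 of 10 naive pluripotency and 4 of 11 trophoblast markers rose as well, the naive sum being 385 to 436 CPM against 104 to 131 CPM in WT, and the part of that shift was not tested. Against WT no member was called in LSD1 CI EpiLCs by edgeR, with 2.15% of all genes called and 2 members at an unadjusted p under 0.05, while DESeq2 called Runx1 as lower in both LSD1 CI and LSD1 KO EpiLCs. A485 brought Tal1 in LSD1 KO EpiLCs to 1.27 and 0.642 CPM against 10.1 and 6.71 CPM with DMSO (-3.25 ± 0.33, adjusted p = 7.77e-07). It was the 1 member called of 6, with 17.6% of all genes called and 10.2% as lower, and the call held in all 11 alternatives. Of the naive markers 4 of 10 fell with A485 as well.

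In serum the gene that stood out was Gata2. It was at 40.2 and 56.8 CPM in LSD1 CI cells against 4.28 and 5.84 CPM in WT cells (3.29 ± 0.43, edgeR adjusted p = 0.00544), the 1 member called of 6, with 2.99% of all genes called and 2.41% as higher, but leaving out any of these 4 libraries cost the call (adjusted p of 0.0149 to 0.0463). In the same cultures 6 of 10 tested trophoblast markers rose, with a sum of 549 and 1099 CPM in LSD1 CI cells against 144 to 287 CPM in WT cells, and 6 of 10 rose in LSD1 KO cells (373 to 377 CPM), where 8 of 10 naive markers also rose. The part of these shifts was not tested. LSD1 KO cells had 26.6 and 15.3 CPM of Gata2 (2.05 ± 0.42 over WT, adjusted p = 0.0133) and were not shown to differ from LSD1 CI cells (-1.24 ± 0.38, adjusted p = 0.0916), a comparison in which edgeR called no member, with 2.48% of all genes called and 3 members at an unadjusted p under 0.05, and DESeq2 called 1. Over WT, 2 of 6 members rose in LSD1 KO serum cultures, with 9.55% of all genes called and 6.22% as higher: Gata1 was at 1.05 and 0.474 CPM against 0.0509 and 0.0924 CPM (3.35 ± 0.77, adjusted p = 0.00598) and Lmo2 at 3.95 CPM in both libraries against 1.73 CPM in both WT libraries (1.18 ± 0.30, adjusted p = 0.00998). Neither call held when WT library 1 or 2 or LSD1 KO library 1 was left out, nor that of Lmo2 without LSD1 KO library 2 (adjusted p of up to 0.0659). A485 lowered 2 of 6 members in LSD1 KO serum cultures, with 12.5% of all genes called and 9.0% as lower, beside 8 of 10 naive pluripotency markers that fell. Tal1 was at 0.601 and 0.592 CPM with A485 against 2.74 and 3.89 CPM with DMSO (-2.54 ± 0.36, adjusted p = 0.000166), and Lmo2 at 1.43 and 1.01 CPM against 3.95 CPM in both (-1.76 ± 0.31, adjusted p = 0.000754, 0.0105 without A485 library 2). No Hba-x count was found in any serum or EpiLC library.

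**Figure D4:**
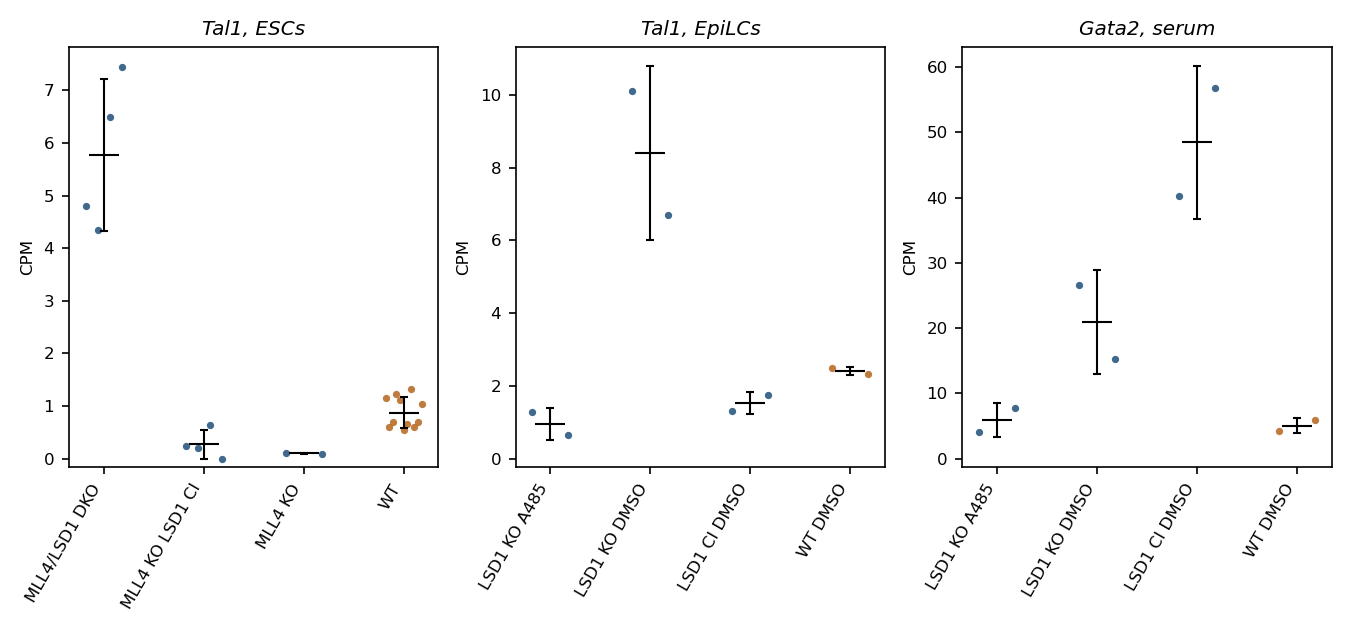
CPM of Tal1 and of Gata2 in each library (points) with group means and SD (lines, drawn no lower than 0), mutant or treated groups left of WT or vehicle. Tal1 reaches 10.1 and 6.71 CPM in LSD1 KO EpiLCs with DMSO and falls to 1.27 and 0.642 CPM with A485, and Gata2 reaches 40.2 and 56.8 CPM in LSD1 CI serum cultures.

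**Figure D5:**
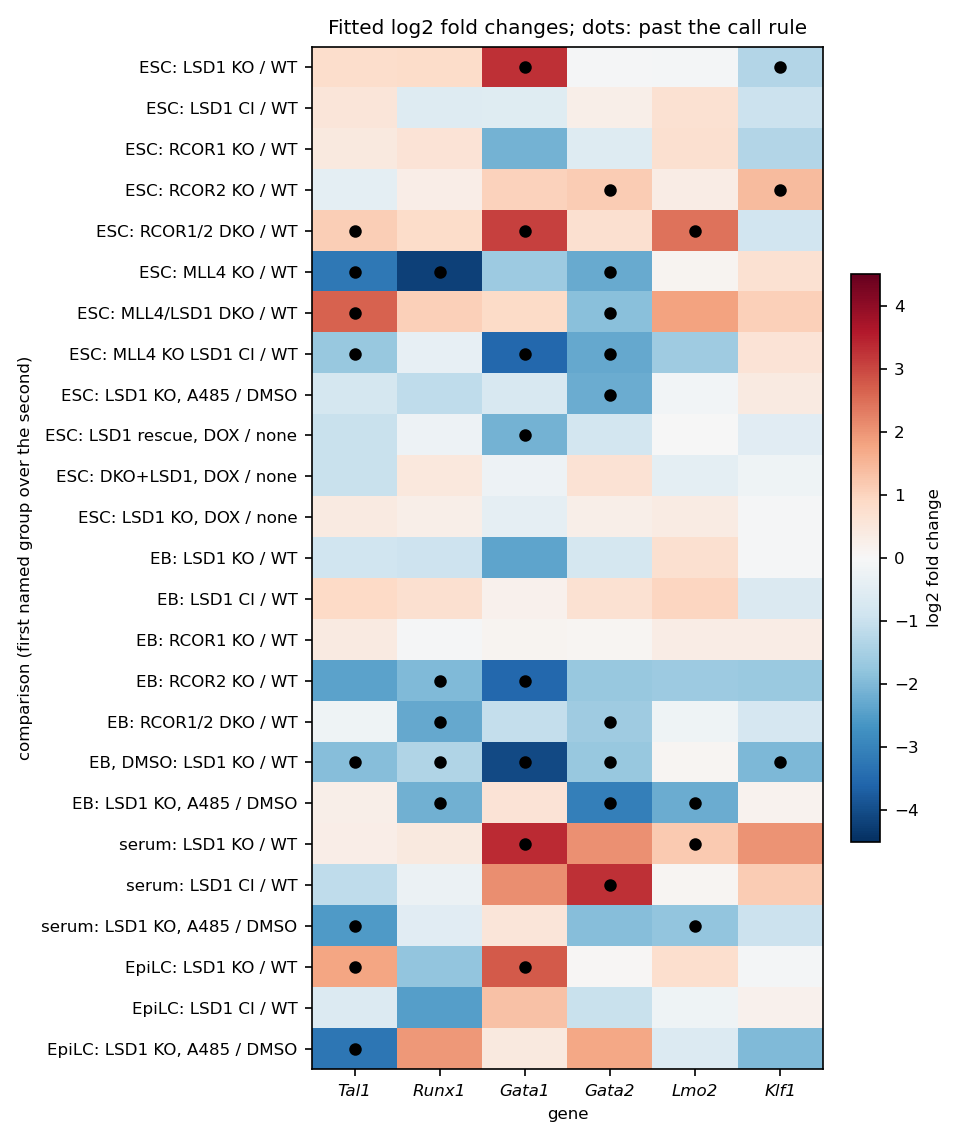
Fitted log2 fold changes (colour, red above and blue below 0) of Tal1, Runx1, Gata1, Gata2, Lmo2 and Klf1 (columns) in the comparisons named at the left (rows), each as the mutant, treated or induced group over its WT, vehicle or uninduced group, with a dot where the criteria were passed. In LSD1 KO EBs with DMSO 5 of these 6 genes pass below 0, whereas Gata1 lies at 3.29 in LSD1 KO ESCs and 3.06 in RCOR1/2 DKO ESCs.

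The members did not share a single pattern over the 34 groups. Across group means on the log2(CPM + 0.1) scale, the Pearson correlation of Hbb-bh1 was 0.64 with Tal1, 0.63 with Runx1, 0.49 with Lmo2, 0.41 with Gata2 and 0.38 with Gata1. Among 13324 genes compared, those most like Hbb-bh1 were Hand2os1 and Tdo2 (0.93 each) and Akr1c19, Kif12 and Gata5 (0.91 each), the last a GATA factor of endoderm and heart. With a pseudocount of 1 Epb42 was among the first (0.97), so the order below the leading genes depends on how the many groups near 0 are scaled. Those most like Gata2 were Csrp1 (0.88), Dsp and Cald1 (0.80 each), Stox1 (0.79) and Itpkb (0.78), while Runx1 reached 0.64 and Tal1 0.37. These correlations are descriptions over group means that share libraries' depth and composition, with no test.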

How the data were processed

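The authors deposited 1 table of raw counts per library, made per the labels with STAR 2.7.9a and Picard 2.25.5 on genome build mm9. Per the study's methods, ribosomal RNA was depleted, libraries were strand-specific, duplicates were removed and reads were counted per gene on the reverse strand. Whole counts as deposited were tested with edgeR 4.0.16 (quasi-likelihood F test, TMM scaling, robust, genes kept by filterByExpr), separately for ESCs, untreated EBs, drug-treated EBs, ESCs with A485, DOX, serum and EpiLC libraries, with p-values adjusted by Benjamini-Hochberg over all genes tested. Calls needed an adjusted p under 0.01 together with a log2 fold change beyond 1 in either direction, and the SE was taken from the F statistic. CPM were relative to all counts of a library. Bounds take a floor of 3 counts over a group, and intervals of 95% cover counting error only, treating each count as independent. Of the low gene counts, 72.2 to 84.7% per library were even, so counts came largely in pairs. The counting intervals are therefore too narrow, and the floor stands for fewer independent fragments than counts.

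The members and gene lists were chosen with earlier results of these data known. The text names all 10 members, up to 4 called genes of each list and comparison with the smallest adjusted p, any gene beside which a member has to be read, and the 5 genes most like Hbb-bh1 and Gata2, except a few that are not reported here. Alternatives were DESeq2 1.42.0, its size factors, no low-count filter, halved counts, no Rn45s, the compared groups alone, an alignment term, the replicate block and leaving out each library. Of 33 comparisons sharing replicate numbers, 2 were paired by correlated deviations (0.68 to 0.73 for the LSD1 rescue and 0.61 to 0.67 for the DKO + LSD1 line, with and without DOX). The procedure was tested on simulated data. Fits used R 4.3.3, and levels Python 3.11.15.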

Additional observations from a re-analysis of the deposited data

Results flagged for a closer look

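Of 99 sets of 1 gene in 1 group of 4 to 10 libraries, 10 had a library far from the others, some of them in the same library, and chance alone would mark about 1 set in 20. Among EBs these were RCOR1 KO library 3, high in Hba-x (4.43 CPM) and Hbb-bh1 (14.9 CPM), WT library 5, high in Hbb-bh1 (6.50 CPM), and LSD1 CI library 3, high in Runx1 (44.2 CPM). Among ESCs, LSD1 CI library 4 was low in Tal1 (0.771 CPM) and library 1 high in Runx1 (1.42 CPM), LSD1 KO library 2 was high in Tal1 (2.77 CPM) and library 6 in Hbb-bh1 (0.624 CPM), and MLL4/LSD1 DKO library 4 was low in Lmo2 (0.647 CPM). Library 4 of the uninduced DKO + LSD1 line was high in Gata1 (8.32 CPM).

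Effects over WT that differed between EBs and ESCs by the edgeR test of the difference (log2, EB minus ESC) were those of LSD1 KO on Gata1 (-5.69) and Hbb-bh1 (-11.51, not interpretable, with no count in LSD1 KO EBs and a place in the test only through the EB groups where it was high) and of RCOR1/2 DKO on Gata1 (-4.13), Runx1 (-3.11), Lmo2 (-2.60) and Gata2 (-2.34).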

How the results depend on the processing

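No member's difference changed sign among the values compared, and the counts of members called that changed by over 1.5 times were as follows, with causes not tested. DESeq2 called 2 members in untreated LSD1 KO EBs, 1 in LSD1 CI EBs, 4 in RCOR1/2 DKO EBs, 3 for LSD1 KO over LSD1 CI EBs, 1 for RCOR1/2 DKO EBs over those labelled RCOR2 KO, 1 in LSD1 CI EpiLCs, 3 for A485 in EpiLCs, 1 in RCOR1 KO ESCs, 2 for LSD1 KO over LSD1 CI ESCs, 1 for these in serum and 1 for the difference of DOX effects between the rescue and DKO + LSD1 lines. With no low-count filter the counts were 1 in RCOR1/2 DKO EBs, 1 in LSD1 CI EpiLCs, 4 for A485 in EpiLCs, 2 for LSD1 KO over LSD1 CI EpiLCs, 0 in LSD1 CI serum cultures, 1 for LSD1 KO over LSD1 CI in serum and 8 for WT EBs over ESCs. Halved counts gave 1 in untreated LSD1 KO EBs and 2 each for LSD1 KO over LSD1 CI in EBs, EpiLCs and ESCs and for A485 in EpiLCs. The compared groups alone gave 0 for the rescue line, the EBs labelled RCOR2 KO, LSD1 KO over LSD1 CI EBs and RCOR2 KO ESCs, 1 in LSD1 KO and MLL4 KO/LSD1 CI ESCs, 2 for LSD1 KO over LSD1 CI ESCs, and 3 for RCOR1/2 DKO EBs over those labelled RCOR2 KO and for A485 in EpiLCs. The alignment term gave 1 each in LSD1 KO and RCOR2 KO ESCs, leaving out Rn45s gave 1 in LSD1 KO serum cultures, and adding the DMSO EBs gave 4 in LSD1 KO EBs. Of those 4, Hba-x and Hbb-bh1 could be called in 1 direction only.

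With the replicate number as a block, the paired DOX comparisons kept their number of calls (1 in the rescue line, 0 in DKO + LSD1). Elsewhere, where libraries share only a number, the block gave 1 in untreated LSD1 KO EBs, in EBs labelled RCOR2 KO, for RCOR1/2 DKO EBs over these, in LSD1 CI EpiLCs and in LSD1 KO, MLL4 KO and MLL4 KO/LSD1 CI ESCs, 2 for LSD1 KO over LSD1 CI in EpiLCs, ESCs and serum, and 3 for LSD1 KO over LSD1 CI EBs and for A485 in EpiLCs.

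Smaller changes included 6 calls under DESeq2 against 8 in LSD1 KO EBs with DMSO, without Gfi1b and Hbb-bh1. Among the 8, Gfi1b, Hba-x and Hbb-bh1 could be called in 1 direction only. Leaving out single libraries gave 0 to 1 calls in untreated LSD1 KO EBs, for LSD1 KO over LSD1 CI EBs, in LSD1 CI EpiLCs, in RCOR2 KO ESCs and for the difference of DOX effects, 0 to 2 in EBs labelled RCOR2 KO, MLL4 KO ESCs and LSD1 KO serum cultures, 0 in LSD1 CI serum cultures, 1 to 2 in RCOR1/2 DKO EBs, for A485 in EpiLCs and for LSD1 KO over LSD1 CI ESCs, and 1 to 3 in MLL4 KO/LSD1 CI ESCs and for A485 in serum. Where a group kept 1 library, its spread was assumed to be that of the others. Over all genes, 98 of 474 counts of calls moved by over 1.5 times, among them 529 under DESeq2 against 25 in RCOR1 KO ESCs. Globin and Gfi1b values rest on few counts, and their fold changes move with the handling of zeros.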
